A study of Mus musculus with 18 samples.

Results

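The genes described here are 32 genes of antigen-presenting cells, chosen by name, with no threshold on their values: the chains of MHC class II and the genes that load and switch them on, costimulatory molecules, regulators of the dendritic lineage, and markers of dendritic and Langerhans cells. All 32 were found by symbol among the 41605 gene IDs of each deposited table. RNA sequencing had been carried out on 18 samples of skin from C57BL/6 mice of 8 to 12 weeks of age. Skin had been treated with phosphate-buffered saline (PBS, the control), with detergent A or with detergent B, with 6 libraries per group, and the series compares each detergent with PBS. The labels give no genetic change in any group, and they do not give the detergents' identity, dose, duration or body site. They do not say that each library is a separate animal either, so the p-values below measure the spread between these samples.

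MHC class II molecules carry peptides from taken-up proteins to the surface of dendritic cells, Langerhans cells, B cells and some macrophages, where helper T cells read them. The invariant chain, encoded by Cd74, holds the groove until the DM molecules exchange it for peptide, and Ciita is the master regulator that turns these genes on together. In skin, Langerhans cells live in the epidermis among keratinocytes and dermal dendritic cells live below it, and both can travel to lymph nodes after contact with an irritant. In whole skin, fewer cells of a type and less RNA per cell cannot be told apart.

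Class II promoters are known for an X box, bound by the RFX complex, and a Y box, bound by NF-Y, on which Ciita acts. Promoter windows (250 bases before to 50 after the gene start, RefSeq, GRCm38.p6) were found for 20 of the 32 genes, among them 6 of the 9 class II genes, H2-Aa, H2-Eb1, H2-DMa, H2-DMb1, H2-Oa and H2-Ob. The Y core ATTGG was searched on both strands and lay in 6 of the 7 windows of these genes, of which 2 belong to H2-DMa and 1 of those lacked it. It lay in 37.4% of all 32851 windows and in 5 of the 15 windows of the other members. An X1 core, AACNGATG, also searched on both strands, was in 2.32% of all windows. Only 17 windows, or 0.0517%, held the X1 core followed by the Y core within 40 bases on one strand, and the windows of H2-Eb1 and H2-DMb1 were among them. The 70 bases around the Y core are shown for the 6 class II genes, since their levels are described below. All lie on chromosome 17, H2-Aa at chr17:34287847-34287916 (minus strand), H2-Eb1 at chr17:34305763-34305832 (plus), H2-DMa at chr17:34125275-34125344 (plus), H2-DMb1 at chr17:34153085-34153154 (plus), H2-Oa at chr17:34092291-34092360 (plus) and H2-Ob at chr17:34238803-34238872 (plus). They are written 5′ to 3′ on the strand of the gene, with Y and X1 cores in capitals.
H2-Aa: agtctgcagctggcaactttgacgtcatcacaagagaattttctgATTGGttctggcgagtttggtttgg
H2-Eb1: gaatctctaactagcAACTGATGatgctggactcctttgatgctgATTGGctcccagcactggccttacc
H2-DMa: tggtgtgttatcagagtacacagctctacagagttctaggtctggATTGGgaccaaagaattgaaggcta
H2-DMb1: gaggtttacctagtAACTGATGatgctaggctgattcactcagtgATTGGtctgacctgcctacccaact
H2-Oa: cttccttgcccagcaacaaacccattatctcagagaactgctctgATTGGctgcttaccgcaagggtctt
H2-Ob: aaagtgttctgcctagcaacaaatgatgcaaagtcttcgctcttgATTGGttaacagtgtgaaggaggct
The Y core began 48 bases before the gene start in H2-Aa, 59 in H2-Eb1, 198 in H2-DMa, 61 in H2-DMb1, 43 in H2-Oa and 57 in H2-Ob. Between the X1 and Y cores lay 22 bases in H2-Eb1 and 23 in H2-DMb1. A match is a description of these letters and not a measured binding site, and the lack of an X1 match in the other windows says nothing about RFX.

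Library totals ranged from 17312623 to 29599018 counts. The levels below are in CPM, each gene's reads scaled to a common library size that edgeR's TMM factors correct, and a level is on this scale unless another is named. Keratins of the hair shaft and follicle differed greatly from one library to the next: the 18 measured together summed to 158 to 6944 CPM in PBS, 9.47 to 4916 CPM with detergent A and 17.6 to 3918 CPM with detergent B. Detergent A replicate 6 stood apart from its group in the class II genes. It was the highest detergent A library for 16 of the 31 genes tested, so the calls with detergent A, and the values it moved most, are given with and without it. Other groups had such libraries too. PBS replicate 4 was the lowest of its group for 16 genes and detergent B replicate 5 the highest of its group for 14.

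On a per-length scale in PBS skin, Cd74 had the highest mean level of the 32 genes, at 218 ± 41.0 CPM per kilobase of exon (SD, n = 6). Epcam, an adhesion gene of Langerhans cells that keratinocytes also express, came next at 100.1 ± 6.19 CPM per kilobase. The class II chain genes H2-Eb1, H2-Ab1 and H2-Aa followed at 86.6, 69.6 and 59.6 CPM per kilobase, and the ranges of these 3 neighbours overlapped. Cd24a stood at 56.2 CPM per kilobase, and the next gene, Sirpa, at 19.4. The lowest levels were those of Xcr1 (0.248), H2-Ob (0.246) and Clec9a (0.219 CPM per kilobase), whose ranges overlapped, and only 3 to 27 reads of Clec9a were counted per library. H2-Oa, at 1 to 21 reads per library, was the single member below the filter on low counts, and 31 of 32 were tested.

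**Figure D1:**
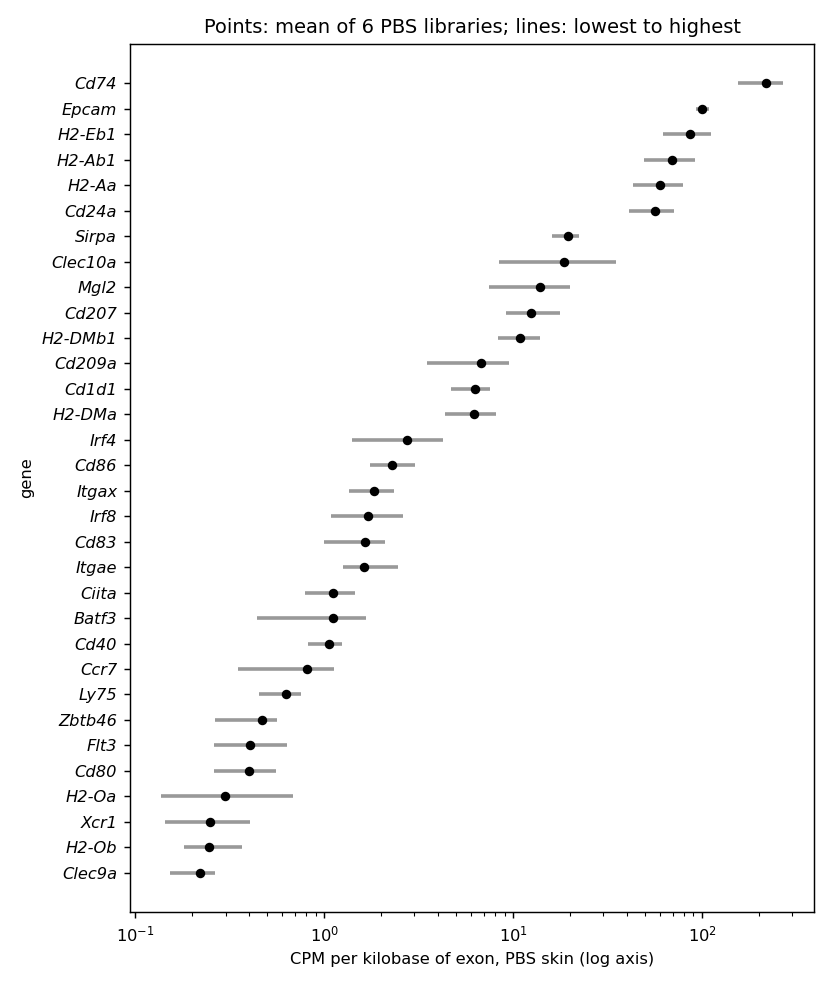
Mean level of each of the 32 genes in PBS skin in CPM per kilobase of exon (log axis), with points for the mean of 6 libraries and lines from the lowest to the highest library. Cd74 is highest at 218 and Clec9a lowest at 0.219.

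The test of the series' first question, detergent A against PBS, called 0 of the 31 genes (edgeR quasi-likelihood, threshold of 0.05 on the adjusted p). Across all 16836 genes tested 0.0535% were called higher and 0.137% lower. Among the 31 members 13 were lower and 2 higher at an unadjusted p under 0.05, where 8.71% of all genes were lower and 10% higher. After adjustment DESeq2 called 2 members (H2-Ab1 lower and Cd24a higher), or 6.45% against 4.81% of all genes, and voomWithQualityWeights called 10, or 32.3% against 23.3%. The log2 fold change was negative for 26 of the 31 genes (83.9%, against 51.6% of all genes), with a median of -0.45 against -0.00899 over all genes tested. Detergent B was set against the same PBS libraries, so its values are no independent repeat.

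Among the chain genes of class II, H2-Ab1 (ENSMUSG00000073421, chr17:34257689-34269419 in GRCm38), the I-A beta chain, ran from 126 to 235 CPM in PBS skin with a median of 173. Its values with detergent A were 75.6 at the lowest, 108.5 at the median and 173 at the highest, and with detergent B 111, 151 and 187. Of the detergent A libraries 4 of 6 lay below the lowest PBS library and replicate 6 lay near the PBS median, so the groups overlapped. The log2 fold change was -0.63 ± 0.19 (SE) with detergent A, 0.648 times the PBS level (95% interval of the log2 value -1.04 to -0.21, edgeR adjusted p = 0.109). It was -0.24 ± 0.19 with detergent B (adjusted p = 0.464). H2-Aa, the I-A alpha chain, had 164, 217 and 301 CPM as its lowest, median and highest value in PBS, 120, 150.5 and 276 with detergent A, and 145, 208 and 285 with detergent B. For H2-Aa 5 of 6 detergent A libraries were below every PBS library, and only replicate 6 was above the PBS mean. H2-Eb1, the I-E beta chain, had 120, 160 and 216 CPM in PBS, 83.6, 111 and 188 with detergent A, and 110, 150 and 204 with detergent B. Its detergent A libraries lay below the PBS range in 4 of 6 cases and its detergent B libraries in 2 of 6, with none above it. The log2 fold changes of H2-Aa and H2-Eb1 with detergent A were -0.48 ± 0.21 and -0.49 ± 0.19 (SE), with edgeR adjusted p of 0.222 and 0.186.

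Cd74, the invariant chain, had 261, 363 and 453 CPM as the lowest, median and highest value in PBS, 165, 228 and 443 with detergent A, and 232, 326 and 465 with detergent B. Detergent A replicates 1 to 5 were all below the lowest PBS library and replicate 6 was close to the highest. For Cd74 the log2 fold change was -0.56 ± 0.22 (SE) with detergent A (edgeR adjusted p = 0.185) and -0.14 ± 0.22 with detergent B. H2-DMa, a chain of the peptide exchanger, had 14.96, 21.4 and 28.0 CPM in PBS, 9.49, 13.45 and 24.5 with detergent A, and 14.6, 20.15 and 28.45 with detergent B. Its partner H2-DMb1 had 13.9, 17.3 and 23.2 CPM in PBS, 9.93, 12.4 and 20.4 with detergent A, and 13.1, 16.2 and 21.8 with detergent B. With detergent B the H2-DMa values spanned the PBS range, and those of H2-DMb1 overlapped it without reaching its top. With detergent A 4 of 6 libraries for H2-DMa and 5 of 6 for H2-DMb1 lay below the PBS range. Their log2 fold changes with detergent A were -0.52 ± 0.21 and -0.45 ± 0.17 (SE). H2-DMb1 shares 95.7% of letters over 1081 aligned bases with H2-DMb2, which averaged 3.2 to 3.77 CPM, so the split of reads between the pair is uncertain. H2-DMa overlaps exons of Brd2 on the opposite strand, and Cd74 those of Mir5107 on its own.

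The DO genes encode a brake on DM and were scarce. H2-Ob ran from 0.972 to 1.97 CPM in PBS, from 0.371 to 2.34 with detergent A and from 0.829 to 1.35 with detergent B. Its 5 lowest detergent A libraries lay below all PBS libraries, and replicate 6 lay above all of them. H2-Oa, too scarce to test, had medians of 0.309 CPM in PBS, 0.164 with detergent A and 0.274 with detergent B, and overlaps exons of BC051537 on the opposite strand.

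Ciita (ENSMUSG00000022504, chr16:10480059-10528418), the regulator of these genes, had 7.58, 10.9 and 13.85 CPM as its lowest, median and highest value in PBS, 5.35, 6.565 and 10.35 with detergent A, and 6.44, 7.985 and 12.8 with detergent B. All 6 detergent A libraries were below the PBS mean and 5 of 6 below the PBS range. Its log2 fold change was -0.59 ± 0.19 (SE) with detergent A (edgeR adjusted p = 0.125) and -0.30 ± 0.19 with detergent B (adjusted p = 0.343). Ciita overlaps exons of Dexi on the opposite strand, and whether the counting used strand is not given in the sources used here.

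**Figure D2:**
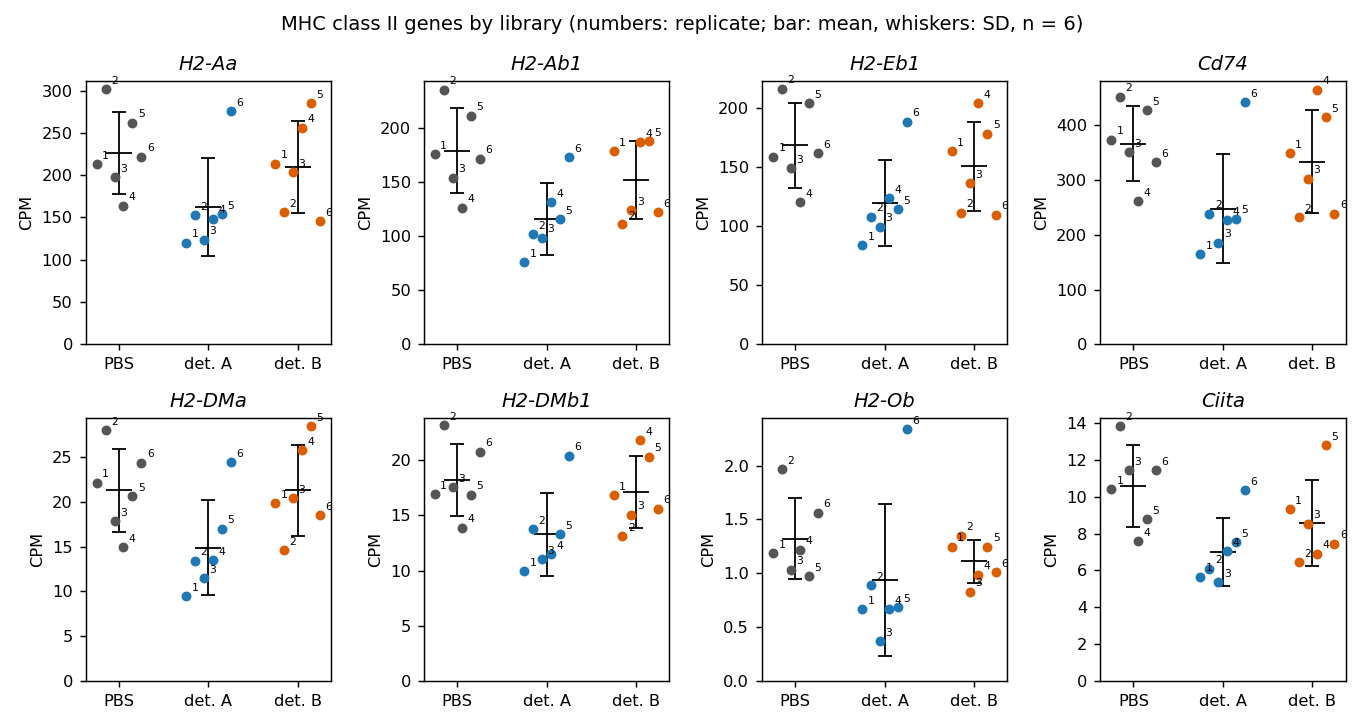
CPM of 8 class II genes by library, with the replicate number beside each point, the mean as a bar and the SD as whiskers (n = 6 per group). Detergent A replicates 1 to 5 lie below the PBS mean in each panel. Replicate 6 sits with the PBS libraries, for example at 443 CPM for Cd74, except for H2-Ob, where it lies above them.

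Across the 7 genes H2-Aa, H2-Ab1, H2-Eb1, Cd74, H2-DMa, H2-DMb1 and Ciita, detergent A replicates 1 to 5 had 7 of 7 genes below the PBS mean. Replicate 1 was furthest down, with log2 differences of -1.21 to -0.85, and replicate 5 ran from -0.65 to -0.29. Replicate 6 had 2 of 7 below, with differences of -0.02 to 0.31. Libraries of the other groups also lay high or low in all of these genes together. PBS replicate 4 had 7 of 7 below the PBS mean (-0.48 to -0.37) and PBS replicate 2 had 0 of 7 below (0.33 to 0.44). With detergent B, replicates 2, 3 and 6 had 7 of 7 below and replicate 5 had 0 of 7.

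Without detergent A replicate 6, edgeR called 10 of 31 members with detergent A, 9 lower and 1 higher. The 9 were H2-Aa, H2-Ab1, H2-Eb1, Cd74, H2-DMa, H2-DMb1, H2-Ob, Ciita and Mgl2, and the 1 was Cd24a. In that fit H2-Ab1 had a log2 fold change of -0.78 (adjusted p = 0.0293), Cd74 of -0.81 (0.0266) and H2-Ob of -0.99 (0.0306). All genes called there came to 475 higher and 294 lower, or 4.55%, against 32.3% of the members. No label sets that library apart, so the value with all 6 libraries stands as the result. That library was singled out by the values of these same genes, and leaving it out lowers the detergent A level of genes high in it. The 32.3% and 4.55% are therefore not a fair contrast. Leaving out PBS replicate 6 gave 2 calls, Cd24a and Cd209a (6.45% against 5.24% of all genes), and leaving out detergent A replicate 2 gave 1, Cd24a (3.23% against 5.01%), shares near those of all genes.

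Other cell types carry class II, and their marker lists were measured beside these genes. Of 10 macrophage markers, 10 had a negative log2 fold change with detergent A and 0 passed, also without adjustment. With detergent B 9 were positive and 1 negative, and again 0 passed, also without adjustment. Their summed level was 702 to 1506 CPM in PBS, 327 to 1425 with detergent A and 650 to 1950 with detergent B. Of 8 pan-leukocyte genes, 7 were negative with detergent A, 6 were positive with detergent B, and 0 passed with either. At an unadjusted p under 0.05, 1 was higher with each detergent. Their sums were 322 to 510 CPM in PBS, 271 to 426 with detergent A and 371 to 522 with detergent B. Relative to the leukocyte gene Ptprc, the log2 ratio of H2-Ab1 was 2.38 ± 0.42 in PBS (SD, n = 6), 1.95 ± 0.41 with detergent A and 2.15 ± 0.38 with detergent B, and these ranges overlapped. B cell markers were near 0: the 6 summed to 0.833 to 1.51 CPM in PBS, 1.11 to 1.74 with detergent A and 1.09 to 2.46 with detergent B, and Ms4a1 was at 0 in every detergent B library. The part of macrophages and other leukocytes in the class II values was not tested.

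Fixed pairs of genes were correlated across the 18 libraries on log2 CPM, 15 pairs in all, with p from 100000 permutations adjusted over the pairs. H2-Ab1 followed Cd74, at Pearson r = 0.945 and Spearman rho = 0.897 (p = 1e-05, the smallest the permutations can give, adjusted p = 0.00015 for both). It followed Ciita with r = 0.812 and rho = 0.769 (permutation p = 6e-05 and 0.00037, adjusted p = 0.00045 and 0.002). With Cd209a, a lectin of dermal dendritic cells, r was 0.761 and rho 0.769 (permutation p = 0.00037 and 0.00041, adjusted p = 0.0019 and 0.002). Centred on the group means, the r values were 0.922, 0.699 and 0.645, and without the 2 libraries farthest from the median they were 0.917, 0.752 and 0.728. H2-Ab1 did not pass with Itgax (r = 0.506, rho = 0.492, permutation p = 0.031 and 0.04, adjusted p = 0.093 and 0.1), with Ptprc (r = 0.453, rho = 0.395, permutation p = 0.058 and 0.11, adjusted p = 0.12 and 0.21) or with the macrophage gene Adgre1 (r = 0.46, rho = 0.296, permutation p = 0.053 and 0.23, adjusted p = 0.12 and 0.38). It did not pass either with the Langerhans gene Cd207 (r = 0.34, rho = 0.412, permutation p = 0.17 and 0.093, adjusted p = 0.26 and 0.2) or the hair keratins score (r = 0.197, rho = 0.226, permutation p = 0.43 and 0.36, adjusted p = 0.54 and 0.47). None of the other 7 pairs passed, with adjusted permutation p of 0.06 or more. All pairs share the same libraries and their scaling, and whether the correlation with one gene was larger than with another was not tested.

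**Figure D3:**
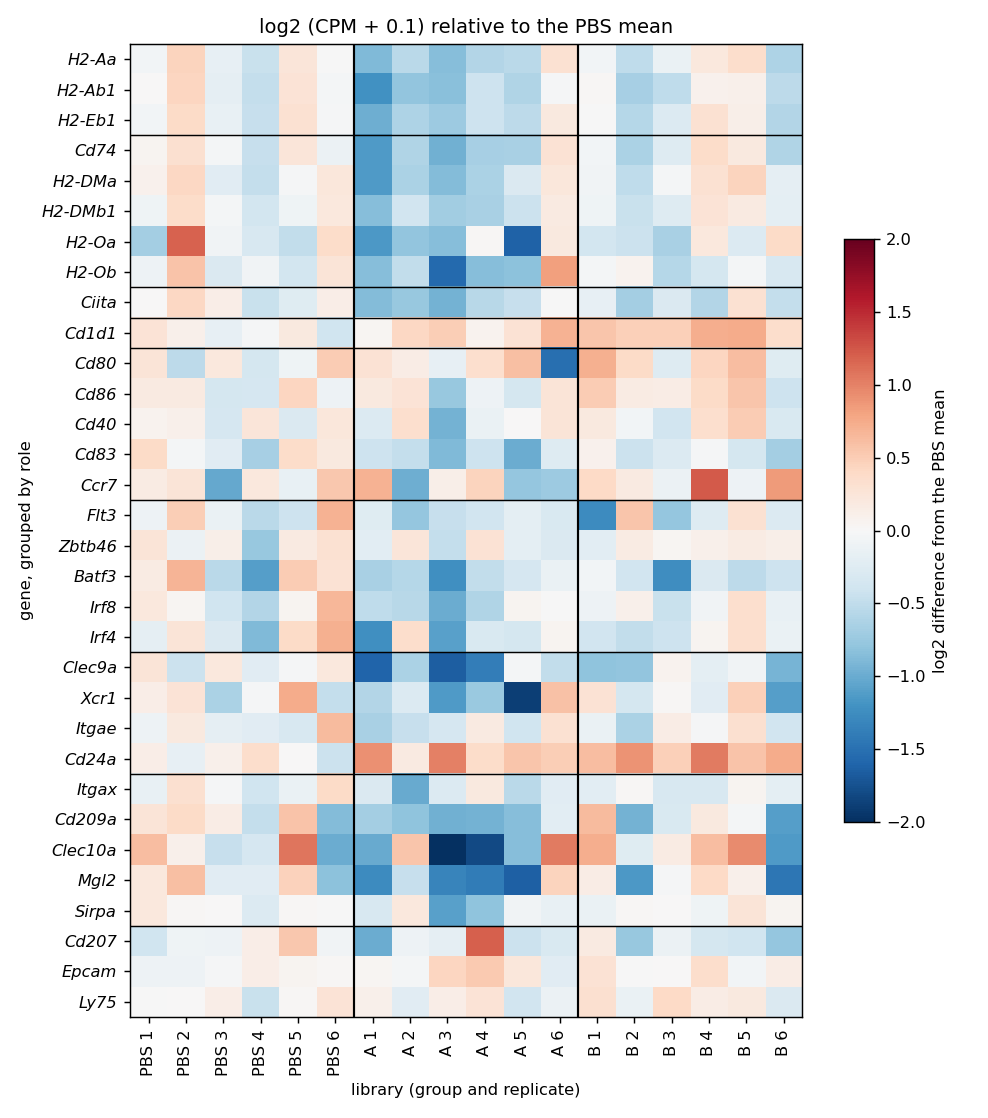
log2 CPM of the 32 genes in each of the 18 libraries relative to the PBS mean, grouped by role (blue lower, red higher, colour limits -2 to 2). H2-Aa, H2-Ab1, H2-Eb1, Cd74, H2-DMa, H2-DMb1 and Ciita lie below the PBS mean in detergent A replicates 1 to 5 and are pale in replicate 6. H2-Ob is higher than in PBS in replicate 6, and Cd24a lies above the PBS mean in all 12 detergent libraries.

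Conventional dendritic cells of the cross-presenting kind sense dead cells through the receptor that Clec9a encodes and carry the chemokine receptor Xcr1, and their development needs Batf3 and Irf8. Clec9a had 0.503, 0.7645 and 0.864 CPM as its lowest, median and highest value in PBS, 0.159, 0.3155 and 0.685 with detergent A, and 0.325, 0.485 and 0.750 with detergent B. Of the detergent A libraries 5 of 6 lay below the PBS range. The log2 fold change of Clec9a was -1.01 ± 0.33 (SE, edgeR adjusted p = 0.129) with detergent A and -0.48 ± 0.32 (adjusted p = 0.373) with detergent B. Exons of Clec9a overlap those of Clec1b on the same strand. Xcr1 ran from 0.639 to 1.805 CPM in PBS, from 0.211 to 1.625 with detergent A and from 0.434 to 1.485 with detergent B, and its log2 fold changes were -0.58 ± 0.38 and -0.16 ± 0.38. Without detergent A replicate 6 the first was -0.999 (edgeR adjusted p = 0.109). Itgae, an integrin of these cells and of some T cells, had log2 fold changes of -0.22 ± 0.21 and -0.12 ± 0.21.

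Batf3 had 0.707, 1.92 and 2.65 CPM as its lowest, median and highest value in PBS, 0.636, 1.09 and 1.47 with detergent A, and 0.631, 1.21 and 1.56 with detergent B. All 12 detergent libraries were below the PBS mean, but PBS replicate 4 was lower than all but the lowest library of each detergent group. Its log2 fold change was -0.69 ± 0.29 with detergent A and -0.60 ± 0.29 with detergent B (edgeR adjusted p = 0.215 and 0.218). Irf8 had log2 fold changes of -0.45 ± 0.21 and -0.09 ± 0.21, and Irf4, which serves the other conventional kind, of -0.40 ± 0.27 and -0.23 ± 0.27. Flt3, the growth factor receptor of dendritic precursors, had -0.47 ± 0.28 and -0.24 ± 0.28. Zbtb46, a transcription factor of conventional dendritic cells, was nearest to 0, with -0.12 ± 0.18 and 0.03 ± 0.18. None of these 5 regulators passed in either comparison. Without PBS replicate 6 the detergent A values of Flt3, Irf8 and Irf4 were -0.305, -0.29 and -0.24.

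Among markers of the other conventional and dermal dendritic cells, Cd209a had 5.53, 11.7 and 15.04 CPM as its lowest, median and highest value in PBS. Its values were 5.14, 5.69 and 8.72 with detergent A, a narrow band at the low end of the PBS range, and 4.66, 9.04 and 15.8 with detergent B. The log2 fold change of Cd209a with detergent A was -0.81 ± 0.28 (SE, 0.571 times PBS, edgeR adjusted p = 0.141), and all 6 libraries were below the PBS mean. Mgl2, a lectin for galactose-type sugars on dermal dendritic cells and macrophages, had 15.6, 27.75 and 42.0 CPM in PBS, 8.85, 11.3 and 37.6 with detergent A, and 10.1, 28.4 and 36.25 with detergent B. Its log2 fold change was -0.81 ± 0.37 with all libraries (adjusted p = 0.249) and -1.23 without detergent A replicate 6 (adjusted p = 0.0431). Clec10a, its close relative, had values from 9.69 to 99.3 CPM within detergent A alone, with log2 fold changes of -0.41 ± 0.50 and 0.16 ± 0.50. Without detergent A replicate 6 the first was -0.90, and without PBS replicate 5 it was -0.13, neither past the threshold. Mgl2 and Clec10a match at 96.4% of 727 aligned bases, so reads could be split between them. Itgax, the integrin CD11c, had -0.34 ± 0.17 and -0.18 ± 0.17, and Sirpa, a receptor for CD47 that macrophages share, had -0.31 ± 0.16 and 0.02 ± 0.16. Itgax matches Itgad at 94.99% of 758 aligned bases.

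Of the 5 genes of costimulation and maturation, Cd83 was the 1 with an unadjusted p under 0.05 with detergent A. Cd80 and Cd86, ligands of CD28, had log2 fold changes of 0.04 ± 0.30 and -0.06 ± 0.20 with detergent A, and Cd40, the receptor for T cell help, of -0.09 ± 0.21. Cd83, a maturation marker that also stabilises surface class II, had 2.55, 4.335 and 5.38 CPM in PBS, 2.002, 2.98 and 3.41 with detergent A, and 2.53, 3.30 and 4.37 with detergent B. All 6 detergent A libraries were below the PBS mean for Cd83, at a log2 fold change of -0.61 ± 0.19 (SE, edgeR adjusted p = 0.119). Ccr7, the receptor that guides dendritic cells to lymph nodes, had -0.15 ± 0.34 with detergent A and 0.44 ± 0.34 with detergent B. With detergent B 4 of these 5 genes had a positive log2 fold change, the exception being Cd83 at -0.31 ± 0.19, and none passed (adjusted p from 0.341 to 0.875).

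Langerhans cells are marked by langerin, the product of Cd207, a lectin of Birbeck granules. Cd207 had 13.9, 17.5 and 26.8 CPM as its lowest, median and highest value in PBS, 9.21, 15.6 and 42.3 with detergent A, and 10.7, 14.2 and 20.8 with detergent B. The highest detergent A value came from replicate 4, while the other 5 lay at 17.2 CPM or less. Cd207 had a log2 fold change of 0.01 ± 0.28 (SE) with detergent A and -0.36 ± 0.28 with detergent B. The 95% intervals were -0.59 to 0.61 and -0.97 to 0.24, so a rise or a fall within those bounds is not excluded. Without detergent A replicate 4 the detergent A value was -0.40 (edgeR adjusted p = 0.349). Epcam had log2 fold changes of 0.18 ± 0.11 and 0.13 ± 0.11, with 3 of 6 libraries above the PBS range in each group. Ly75, the endocytic receptor DEC-205, had -0.03 ± 0.16 and 0.11 ± 0.16 and overlaps exons of Gm13571 on the opposite strand.

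**Figure D4:**
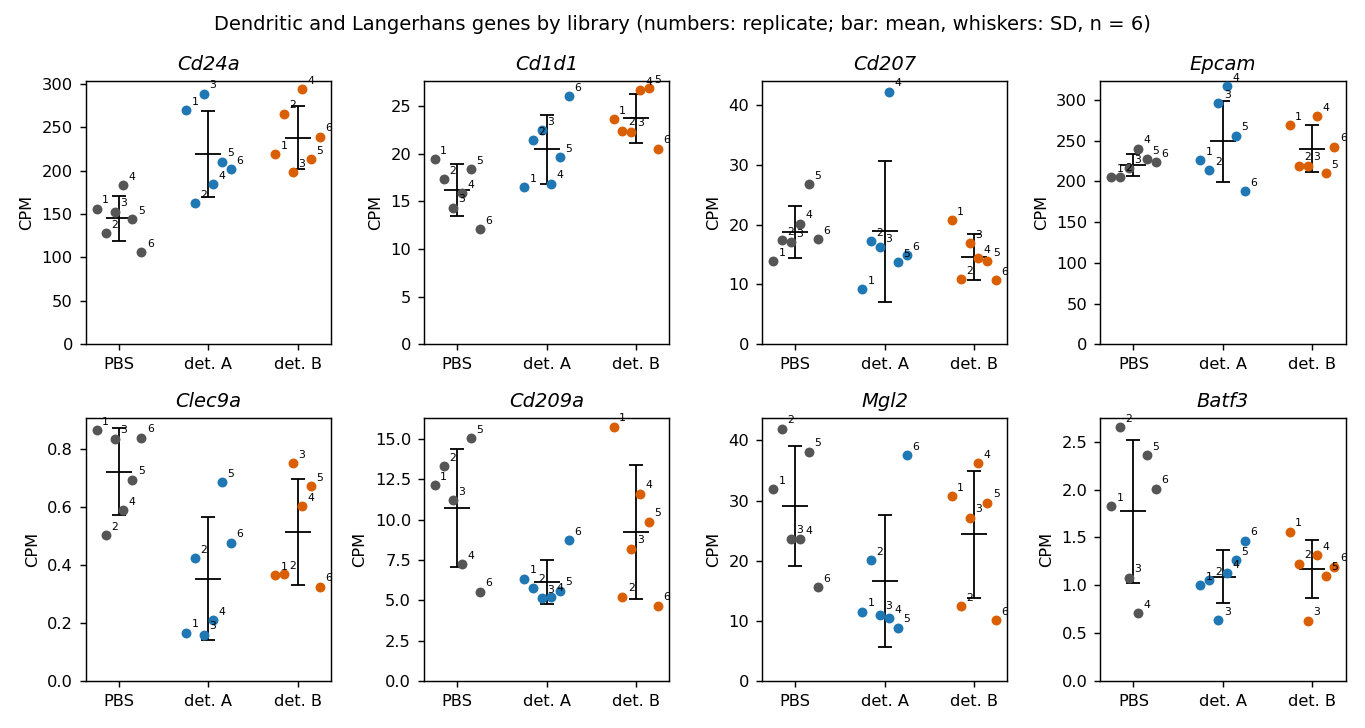
CPM of 8 dendritic and Langerhans genes by library, drawn as in the plot of class II genes. Cd24a and Cd1d1 lie higher with detergent B than in any PBS library, and for Cd207 detergent A replicate 4 stands alone at 42.3 CPM.

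Detergent B against PBS, the series' second question, gave calls for 2 of the 31 genes, both higher, and 0 lower. Over all genes 1.97% were called higher and 1.08% lower. No member was lower even at an unadjusted p under 0.05, where 11.1% of all genes were. The log2 fold change was negative for 20 of the 31 genes (64.5%, against 51.3% of all genes), with a median of -0.12 against -0.00817 over all genes tested.

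Cd24a (ENSMUSG00000047139, chr10:43578284-43584265), a small surface glycoprotein of cross-presenting dendritic cells that keratinocytes and hair follicle cells also carry, rose with detergent B. Its lowest, median and highest values were 106, 148 and 183 CPM in PBS, 163, 206 and 289 with detergent A, and 198, 229 and 294 with detergent B. Every detergent B library lay above every PBS library, and 5 of 6 detergent A libraries did. Against PBS this was a log2 fold change of 0.72 ± 0.15 (SE) with detergent B, a 1.64-fold level (edgeR adjusted p = 0.0224), and 0.60 ± 0.15 with detergent A, a 1.51-fold level (adjusted p = 0.0618). Short stretches of Cd24a match the predicted genes Gm6212 and Gm15352.

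Cd1d1 (ENSMUSG00000028076, chr3:86995834-86999441), which presents lipids to natural killer T cells and is also made by many cells outside the dendritic lineage, rose as well. Its lowest, median and highest values were 12.1, 16.55 and 19.4 CPM in PBS, 16.5, 20.5 and 26.01 with detergent A, and 20.5, 23.0 and 26.9 with detergent B. The detergent B and PBS libraries did not overlap on the TMM scale, but on plain library totals they did, with 19.35 CPM as the lowest detergent B value and 20.51 as the highest PBS value. On the TMM scale 4 of 6 detergent A libraries lay above the PBS range. Its log2 fold change was 0.55 ± 0.13 (SE) with detergent B, a 1.46-fold level (edgeR adjusted p = 0.0325), and 0.33 ± 0.13 with detergent A (adjusted p = 0.172). Cd1d1 matches Cd1d2 at 96.4% of 1236 aligned bases, and Cd1d2 averaged at most 0.101 CPM in any group. Cd24a and Cd1d1 were the 2 of 31 members with every detergent B library above every PBS library, and 1.72% of all genes had this order on the same scale.

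Both calls depended on single libraries and on the model. Neither passed when PBS replicate 2, 3 or 5 or detergent B replicate 2 was left out, and Cd24a alone passed without PBS replicate 4 or detergent B replicate 4 or 5. When the hair keratins score (mean log2 CPM of that list) entered the edgeR model, Cd24a had a log2 fold change of 0.71 (adjusted p = 0.121) and Cd1d1 of 0.64 (adjusted p = 0.0991). DESeq2 with the same term, a fit added after seeing the data, called both (adjusted p = 0.0128 and 0.00514). So did voomWithQualityWeights with that term, also added after seeing the data. Epidermal keratinocyte markers moved the same way: 6 of 7 were positive with detergent B, and Krt1 and Flg were called, at 2.78-fold and 2.42-fold. Their summed level was 15970 to 31740 CPM in PBS, 21260 to 53190 with detergent A and 28380 to 49330 with detergent B, with none at 0. The part of keratinocytes in the Cd24a and Cd1d1 values was not tested.

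**Figure D5:**
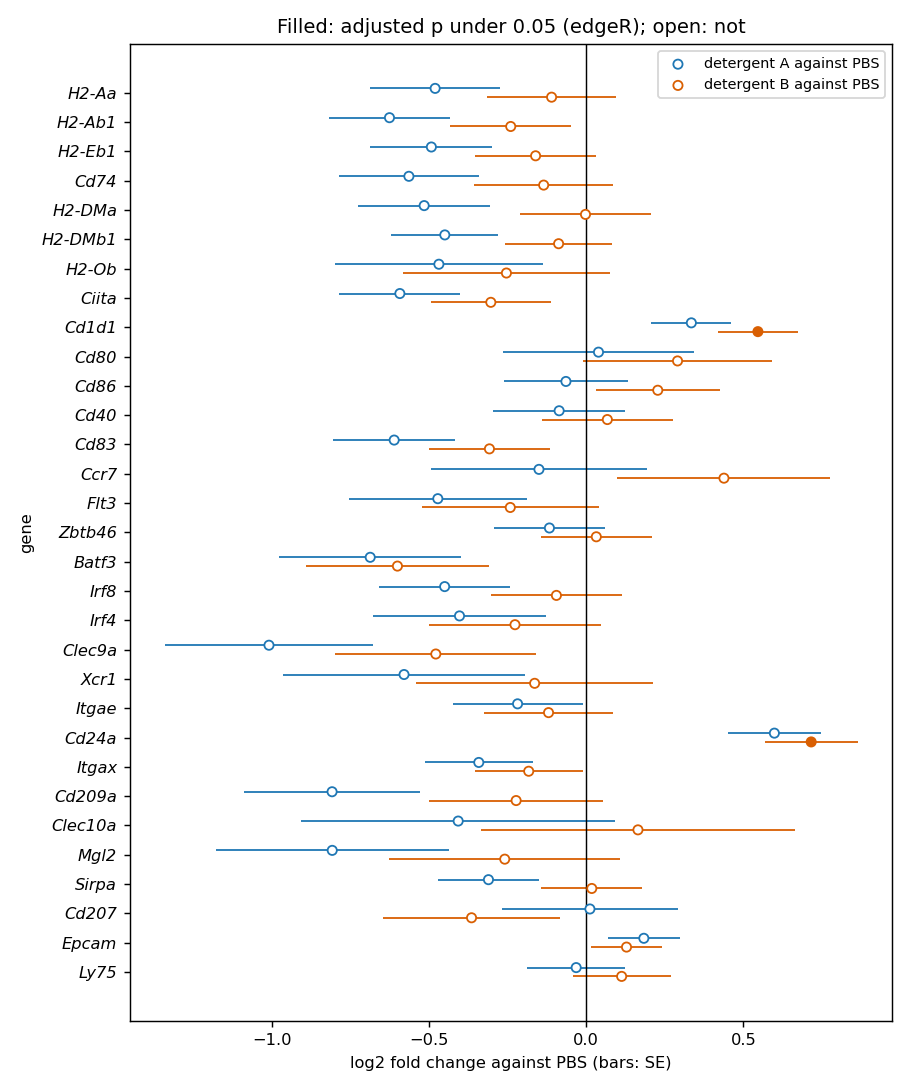
log2 fold change against PBS of the 31 tested genes with detergent A (blue) and detergent B (orange), with bars for the SE and filled points for an edgeR adjusted p under 0.05. The 2 filled points are Cd1d1 and Cd24a with detergent B, and 26 of the 31 detergent A points lie below 0.

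The direct comparison of the detergents, which also tests whether their effects differ, called 0 of the 31 genes. It called 0% of all genes higher and 0% lower, with an adjusted p of 0.989 for every member. At an unadjusted p under 0.05, edgeR had 2 members higher with detergent B, H2-DMa and H2-DMb1, against 1.79% of all genes, and no other tool called a member after adjustment. Even so 29 of 31 log2 differences were positive, with a median of 0.29, and the exceptions were Cd207 and Epcam. Over all genes tested 50.1% of the differences were negative, with a median of -0.000515. For H2-DMa the difference was 0.51 ± 0.21 (SE, 95% interval 0.07 to 0.96) and for H2-Ab1 0.39 ± 0.19 (-0.02 to 0.80). Members share libraries, so the count of 29 is not 29 separate observations.

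The mean of both detergents against PBS called Cd24a (1.58-fold, edgeR adjusted p = 0.0132) and Cd1d1 (1.36-fold, adjusted p = 0.0294), with 12 of 12 detergent libraries above the PBS mean for each. It called 3.8% of all genes higher and 3.11% lower. No member was called lower, and 6 were lower at an unadjusted p under 0.05, where 12.9% of all genes were. These were H2-Ab1, Ciita, Cd83, Batf3, Clec9a and Cd209a, with log2 fold changes of -0.43, -0.45, -0.46, -0.64, -0.74 and -0.52. Without PBS replicate 2 no member passed, and without PBS replicate 3 or 5 Cd24a alone did. Without PBS replicate 4, Cd83 and Batf3 were called lower beside Cd24a, and Cd1d1 did not pass (9.68% against 4.53% of all genes). PBS replicate 4 was the lowest PBS library for 16 of the 31 members, so these shares are not a fair contrast. Without detergent A replicate 6, H2-Ab1, H2-Ob and Ciita passed beside Cd24a and Cd1d1, for 5 members in all (16.1% against 10.1% of all genes in that fit). That library was singled out by these same genes, so those shares are not a fair contrast either.

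Genes around this pathway were read from lists of related function. Of 7 factors of the class II promoter, 0 passed with either detergent (0 and 1 at an unadjusted p under 0.05), and Rfx5, a subunit of the X box complex, had log2 fold changes of 0.05 ± 0.12 and 0.00 ± 0.12 (SE). Of the 6 measured genes that process antigen for class II or belong to its locus, 0 passed (0 and 1 unadjusted). Ctss, the protease that trims the invariant chain, had -0.29 ± 0.24 and 0.25 ± 0.24, and Ifi30, a thiol reductase, had 0.21 ± 0.14 and 0.42 ± 0.14. All 12 MHC class I presentation genes were measured and 0 passed (0 and 0 unadjusted), with median log2 fold changes of -0.0014 and 0.05. H2-K1 had 0.01 ± 0.16 and 0.09 ± 0.16, and B2m 0.11 ± 0.17 and 0.28 ± 0.17. Of 9 measured genes of the mature dendritic program 0 passed (2 and 1 unadjusted), and Fscn1, an actin bundler of dendrites, had -0.27 ± 0.23 and -0.21 ± 0.23.

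Of 12 further dendritic cell genes, 1 was called, lower with detergent B and in the mean of both detergents. Of all genes, 1.08% and 3.11% were called lower in these comparisons. Runx3, a transcription factor that Langerhans cells need and that T cells also use, had 7.095, 9.11 and 10.4 CPM as its lowest, median and highest value in PBS, 4.84, 5.85 and 8.15 with detergent A, and 4.655, 5.76 and 7.26 with detergent B. In each detergent group 5 of 6 libraries lay below the PBS range. Runx3 was lower with detergent B, at a log2 fold change of -0.63 ± 0.15 (SE, edgeR adjusted p = 0.031), and with detergent A its log2 fold change was -0.59 ± 0.14 (adjusted p = 0.0616). Of 10 measured signals for Langerhans cell growth, 0 passed with a single detergent. At an unadjusted p under 0.05, 2 were lower with each, where 8.71% (detergent A) and 11.1% (detergent B) of all genes were. In the mean of both detergents 2 were called lower, against 3.11% of all genes. Tgfb1, the factor that holds Langerhans cells in the epidermis, had 25.1, 28.4 and 32.7 CPM in PBS, 18.97, 20.98 and 24.8 with detergent A, and 20.4, 22.7 and 26.8 with detergent B. With detergent A the log2 fold change of Tgfb1 was -0.42 ± 0.09 (SE, edgeR adjusted p = 0.0548), short of the threshold. It fell by 0.36 ± 0.08 in the mean of both (adjusted p = 0.0146). Csf2ra, a chain of the GM-CSF receptor, fell by 0.57 ± 0.14 (adjusted p = 0.0249). Il34, the keratinocyte signal that maintains Langerhans cells, had log2 fold changes of -0.09 ± 0.21 and 0.00 ± 0.21. The calls of Runx3, Tgfb1 and Csf2ra were not recomputed under other settings.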

How the data were processed

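RNA of mouse skin was sequenced in 18 libraries, 6 per group. The authors deposited whole-number read counts per Ensembl gene, not normalised. The tools named are STAR and featureCounts, with build GRCm38.p5, per the submitters' processing notes. For versions, annotation release, strandedness and multi-mapped reads the answer is not given in the sources used here. Of 41605 gene IDs, 41519 were matched to GENCODE M21 (GRCm38) for symbols, and 86 were not. Of 131 context genes 2 had no match.

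The counts were fitted with edgeR 4.0.16 in R 4.3.3 (TMM scaling, low-count filter by group, robust quasi-likelihood, group as the only term, 18 libraries, 15 residual degrees of freedom). P-values were adjusted by Benjamini-Hochberg over 16836 genes, with a threshold of 0.05. SEs are the log2 fold change divided by the root of F, and intervals are 95%. Levels are CPM on TMM-scaled library sizes, and log2 CPM used a prior count of 2. The procedure was tested on simulated data. DESeq2 1.42.0 and limma 3.58.1 were alternatives, with other scalings, filters, a replicate block, a hair keratins covariate and libraries left out.

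The members, lists and tests were chosen with earlier results of these data known. All 32 members are named. From each context list, genes past the threshold or up to 3 of the highest mean CPM could be named, and genes named outside that rule (Rfx5, Il34, Ptprc and Adgre1) were chosen for their function. Replicate numbers were not treated as pairs: deviations of same-numbered libraries from their group means correlated between -0.35 and 0.55.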

Additional observations from a re-analysis of the deposited data

Results flagged for a closer look

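In a group of 6, the highest or lowest library was marked when its gap to the nearest other library, on the log2 scale, exceeded 0.625 of the group's range. Of 93 groups of member values tested, 4 were marked, and chance marks about 1 in 20, here 4.7. Detergent A replicate 6 was the highest of its group for H2-Aa at 275.8 CPM (gap of 0.705 of the range) and for Cd74 at 442.7 CPM (0.626), and the lowest for Cd80 at 0.4361 CPM (0.644). Detergent B replicate 1 was the lowest of its group for Zbtb46 at 3.329 CPM (0.669). Cd207 in detergent A replicate 4, at 42.3 CPM, did not reach the limit on the log2 scale. No member's effect differed between the detergents by the direct test.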

How the results depend on the processing

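Direction and side of the threshold stayed the same in 2686 of 2753 checks of single members, in which 22 lost and 42 gained a call and 3 turned direction. A direction was read only for values over 1 SE from 0. Within 1 SE of 0 a further 92 checks, on 25 values, changed sign, among them Cd207 and Cd80 with detergent A and H2-DMa, Mgl2 and Xcr1 with detergent B. The 3 were Epcam with detergent B at -0.004 (voomWithQualityWeights with the hair keratins covariate, added after seeing the data), and Xcr1 in the mean of both detergents at 0.004 (edgeR with that covariate) and 0.011 (DESeq2 with it, added after seeing the data). With detergent A, members called went from 0 to 2 with DESeq2 and 10 with voomWithQualityWeights (32.3%, where that tool called 23.3% of all genes), and from 0 to 10 with single libraries left out, the highest without detergent A replicate 6. With detergent B, 2 became 4 with voomWithQualityWeights (12.9% against 30.1% of all genes), 0 with the hair keratins covariate in edgeR, and 0 to 2 with single libraries left out. In the mean of both detergents, 2 became 12 with voomWithQualityWeights (38.7% against 37.6%), 0 with the covariate in edgeR, and 0 to 5 with single libraries left out. DESeq2 and voomWithQualityWeights with that covariate, fits added after seeing the data, each called Cd1d1 and Cd24a in both comparisons (6.45% of members). Of all genes those 2 fits called 1.35% and 2.08% with detergent B, and 2.14% and 3.27% in the mean of both detergents. Detergent B against detergent A stayed at 0 under the settings run. Over all genes, calls with detergent A went from 9 higher and 23 lower to 475 and 334 with DESeq2 and to 1892 and 2027 with voomWithQualityWeights. The causes were not tested. Reads of Clec9a, Xcr1, H2-Oa and H2-Ob were too few to show modest changes.

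With a replicate block in edgeR, 1 member was called with detergent B and 1 in the mean of both detergents, Cd24a in each case, and 0 with detergent A. The labels give the groups the same numbers but do not say what a number shares.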

Other observations

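Other cell types of the skin were measured with the same model. Of 7 measured T cell markers, 7 had a negative log2 fold change with detergent A and 4 with detergent B, and 0 passed (1 and 0 at an unadjusted p under 0.05). Their summed level was 199 to 303 CPM in PBS, 158 to 257 with detergent A and 199 to 258 with detergent B. Most of that sum was Thy1, which other skin cells also express, at a mean of 221.5 CPM in PBS. Of 5 measured genes of plasmacytoid dendritic cells, 0 passed with either detergent by edgeR (2 and 2 higher unadjusted). Ly6d, which keratinocytes also express, made up most of that list's sum.

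Fibroblast markers summed to 5478 to 9717 CPM in PBS, 3263 to 8232 with detergent A and 4657 to 8370 with detergent B. All 6 were negative with detergent A, and their list score differed by -0.43 (exact permutation p = 0.0476, two-sided, adjusted p = 0.346 over 39 tests of list scores, 6 libraries against 6). Of these 6 genes, 1 was called lower in the mean of both detergents by edgeR, Col1a1, where 3.11% of all genes were. Its log2 fold change was -1.02 ± 0.24 (SE) with detergent A (edgeR adjusted p = 0.0595) and -0.72 ± 0.24 with detergent B (adjusted p = 0.0952). The call of Col1a1 was not recomputed under other settings. None of the 39 score tests passed adjustment. The lowest p was that of epidermal keratinocyte markers with detergent B, a score difference of 0.71 (exact permutation p = 0.00433, adjusted p = 0.169).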
